A study of Mus musculus with 2 samples.

Results

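The immediate-early genes described here are Fos, Fosb, Jun, Junb, Jund, Egr1, Atf3, Ier2, Zfp36 and Nr4a1, of which Zfp36 encodes an mRNA-binding protein. They were chosen by name, as the rows of the count tables whose Ensembl identifier maps to one of these symbols, and they are 10 of 31053 genes. Lung cells of C57BL/6JRj mice were sorted for the epithelial surface protein EpCAM and profiled by droplet single-cell RNA sequencing of transcript 3′ ends. The groups were old LPS (18 months old, lipopolysaccharide at 2.5 mg/kg, 24 h), young LPS (3 months old, the same dose and time), old control (18 months, saline) and young control (3 months, saline). LPS is a component of the bacterial outer membrane that injures the lung. Cells of a group were tagged with a hashtag antibody of that group and loaded together on 1 lane, and another lane came from an independent experiment. This gave 8 libraries, 2 per group. The labels do not give the number of mice behind a library, so p-values measure the spread between libraries only.

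The tables hold 85889264 unique molecular identifiers (UMIs, counted transcript molecules) over 14048 barcodes, with 6228266 to 15435789 per library. After filters 11231 cells remained. Cells resembling alveolar epithelial type II cells, the surfactant-producing cells of the alveolus (AE2-like), were 77.7% of them, and their defining transcript Sftpc stood at 122003 CPM (counts of the gene per 1000000 summed UMIs). The other classes were ciliated-like (8.03%), alveolar macrophage-like (4.59%), dendritic-like (4.54%), monocyte/macrophage-like (1.40%) and club/secretory-like (1.58%). The immune classes were present in spite of the EpCAM sort, and Epcam itself stood at 293 CPM in AE2-like, 604 CPM in ciliated-like and 167 CPM in dendritic-like cells. No barcode was shared between libraries of a lane, and 2 were shared between lanes.

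Immediate-early genes are transcribed within minutes of a stimulus without new protein synthesis. MAP kinases signal to serum response factor with its Elk partners and to CREB, and Toll-like receptors and cytokines signal to NF-kappaB. These factors bind promoters of immediate-early genes, and the mRNAs are short-lived. Fos and Jun proteins pair to form AP-1, which binds DNA and drives later genes. In the lung these genes respond to injury and to cytokines. They also respond to the enzymatic release of cells from tissue, here with dispase, so a single-cell level joins what the cell had in the animal and what it made during isolation. These cannot be told apart in these files.

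The promoters of 8 of the 10 genes were available as RefSeq windows of GRCm38.p6, from 250 bases before to 50 bases after the transcription start; those of Egr1 and Ier2 were not used here. The RefSeq start lay within 30 bases of the 5′ end of the GENCODE gene for Fos, Fosb, Jun and Junb. For Jund it lay 1210 bases upstream of that end, and for Zfp36, Nr4a1 and Atf3 it lay 1025, 12577 and 34706 bases downstream, so these 4 windows hold another start than the gene positions given below. TGACG, the core of the cAMP response element that CREB and ATF proteins bind, was present on either strand in 5 of 8 windows (Fos, Fosb, Junb, Atf3 and Nr4a1) and in 20.8% of the 32851 windows of all genes. The full palindrome TGACGTCA, which contains that core, was in 0 of 8 windows and in 1.79% of all. The AP-1 site TGANTCA was in 0 of 8 and in 7.81%. A CArG box, the serum response factor site, was in 1 of 8 (Zfp36) and in 1.63%, and an NF-kappaB site was in 3 of 8 (Fos, Fosb and Nr4a1) and in 8.46%. A match is a description of these letters, not of binding. Sites outside the windows or with other letters were not searched, so a missing match does not mean that a gene lacks such a site. The 150 bases before the start are shown for 4 genes whose promoters hold TGACG and whose levels are followed below. They run 5′ to 3′ on the strand of the gene, with TGACG or its reverse complement CGTCA in capitals. The regions are chr12:85473740-85473889 on the plus strand for Fos, chr8:84978749-84978898 on the minus strand for Junb, chr1:191183334-191183483 on the minus strand for Atf3 and chr15:101266696-101266845 on the plus strand for Nr4a1.
Fos: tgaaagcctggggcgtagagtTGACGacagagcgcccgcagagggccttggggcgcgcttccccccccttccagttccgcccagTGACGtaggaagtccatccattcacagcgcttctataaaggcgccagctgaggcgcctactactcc
Junb: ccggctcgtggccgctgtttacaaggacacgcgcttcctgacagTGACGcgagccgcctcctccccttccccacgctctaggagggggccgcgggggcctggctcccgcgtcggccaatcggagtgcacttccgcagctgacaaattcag
Atf3: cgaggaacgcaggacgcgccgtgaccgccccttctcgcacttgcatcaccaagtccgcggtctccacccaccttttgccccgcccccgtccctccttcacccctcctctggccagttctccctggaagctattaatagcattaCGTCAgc
Nr4a1: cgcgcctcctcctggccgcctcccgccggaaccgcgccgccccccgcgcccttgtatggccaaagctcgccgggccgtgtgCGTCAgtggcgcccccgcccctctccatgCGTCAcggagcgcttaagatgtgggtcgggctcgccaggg

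Junb was the member with the plainest LPS response in AE2-like cells: it was higher at both ages. Atf3 and Jund were called higher in young mice only. Nr4a1 was called lower in old mice only, but its log2 value was alike at both ages (-0.80 in the old and -0.83 in the young). The comparison asks how the injury at 24 h changed these genes in the cells that make surfactant. Values are CPM of the UMIs summed over the AE2-like cells of a library (719 to 1411 cells), and fold changes are log2 with a standard error, from edgeR's quasi-likelihood test with Benjamini-Hochberg adjustment over 11354 genes and a threshold of 0.05.

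Junb encodes a Jun family protein that can restrain the activity of Jun in AP-1 (ENSMUSG00000052837, chromosome 8, 84974484 to 84978718, minus strand of GRCm38). Junb stood at 305 and 237 CPM in old LPS libraries, against 118 and 101 CPM in old control libraries. In the young it stood at 231 and 174 CPM in LPS libraries, against 136 and 135 CPM in control libraries. All 4 LPS libraries lay above all 4 control libraries. The log2 fold change was 1.36 ± 0.16 in the old (adjusted p = 6.16e-05) and 0.58 ± 0.16 in the young (adjusted p = 0.0152). Within lanes it was 1.37 and 1.23 in the old and 0.77 and 0.36 in the young. The young call was lost without young LPS 1 (0.36, adjusted p = 0.0947), young control 1 (0.59, 0.0749) or young control 2 (0.55, 0.104). With every deposited barcode summed the young value was 0.61 and also not called (adjusted p = 0.0536). Over both ages Junb rose by 0.97 ± 0.11 (adjusted p = 3.46e-05), and this call held in all 19 alternative analyses.

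Jund encodes the Jun family member that is made constitutively in many cells (ENSMUSG00000071076, chromosome 8, 70698949 to 70700616, plus strand). Jund stood at 521 and 506 CPM in young LPS libraries, against 395 and 395 CPM in young control libraries. In the old it stood at 422 and 410.0 CPM in LPS libraries, against 434 and 391 CPM in control libraries. The young groups did not overlap and the old groups did. Jund rose in the young by 0.38 ± 0.09 (adjusted p = 0.0033; 0.0509 without young control 2), and its old value was 0.07. Jun, the founding AP-1 gene (ENSMUSG00000052684, chromosome 4, 95049034 to 95052222, minus strand), stood at 173 and 143 CPM in old LPS and 191 and 140.0 CPM in young LPS libraries, against 200.1 and 133 CPM in old control and 147 and 118 CPM in young control libraries. In each group the lane 1 library was the higher one, and Jun was lower in lane 2 than in lane 1 (log2 difference -0.41 ± 0.07, adjusted p = 0.012; 0.0528% of genes were lower and 0.0793% higher). Its LPS difference in the young was 0.33 ± 0.26 (adjusted p = 0.386) and passed with the lane as a block (0.31 ± 0.09, adjusted p = 0.0157).

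Atf3 encodes a stress-induced factor of the ATF/CREB family that represses many inflammatory genes (ENSMUSG00000026628, chromosome 1, 191170296 to 191218039, minus strand). Atf3 was sparse, with 7 to 69 UMIs per library. It stood at 8.99 and 5.48 CPM in young LPS libraries, against 2.96 and 0.975 CPM in young control libraries. In the old it stood at 4.46 and 4.15 CPM in LPS libraries, against 2.81 and 4.74 CPM in control libraries. The young groups did not overlap, and young control 2 was the lowest of all libraries. Atf3 rose in the young by 2.05 ± 0.44 (adjusted p = 0.00234), a call that was lost without young control 2 (1.25, adjusted p = 0.0808), and its old value was 0.21 (adjusted p = 0.656). Over both ages it rose by 1.13 ± 0.29 (adjusted p = 0.00428; 0.73 and 0.0557 without young control 2). With every deposited barcode summed the value over both ages was 0.25 and not called (adjusted p = 0.311). The young value was then 0.86 and also not called (adjusted p = 0.0564).

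Fos encodes the AP-1 partner of the Jun proteins and is the textbook immediate-early gene (ENSMUSG00000021250, chromosome 12, 85473890 to 85477273, plus strand). Fos stood at 68.3 and 62.8 CPM in old LPS and 98.5 and 63.4 CPM in young LPS libraries, against 70.6 and 33.6 CPM in old control and 33.0 and 52.2 CPM in young control libraries. The young groups did not overlap, old control 1 lay among the LPS libraries, and in the old the 2 control libraries differed by more than the group means did. The log2 fold change was 0.41 ± 0.45 in the old (adjusted p = 0.512) and 0.89 ± 0.47 in the young (adjusted p = 0.215). Within lanes it was -0.05 and 0.90 in the old and 1.58 and 0.28 in the young. Fosb, a related AP-1 gene (ENSMUSG00000003545, chromosome 7, 19302696 to 19310051, minus strand), stood at 7.68 to 12.5 CPM in LPS libraries and 5.42 to 16.2 CPM in control libraries, with adjusted p = 0.997 in the young.

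Nr4a1 encodes an orphan nuclear receptor that is induced by growth factors and inflammatory signals (ENSMUSG00000023034, chromosome 15, 101254269 to 101274795, plus strand). Nr4a1 stood at 3.21 and 5.96 CPM in old LPS libraries, against 9.08 and 7.76 CPM in old control libraries. In the young it stood at 3.65 and 1.86 CPM in LPS libraries, against 6.16 and 3.90 CPM in control libraries. Each LPS library lay below both control libraries of its age. Nr4a1 fell in the old by 0.80 ± 0.31 on the log2 scale (adjusted p = 0.048; 0.0698 with the lane as a block), and the young value was -0.83 ± 0.41 (adjusted p = 0.129). The difference between the ages in this response was 0.03 ± 0.49 (adjusted p = 0.997). The old call was lost without old LPS 1 (-0.44, adjusted p = 0.211), old control 1 (-0.70, 0.214), old control 2 (-0.90, 0.119), young control 1 (-0.80, 0.0552) or young control 2 (-0.80, 0.0553). Over both ages the value was -0.81 ± 0.26 (adjusted p = 0.0156), and that call was lost without young LPS 2 (-0.59, 0.0723), old control 1 (-0.76, 0.0555) or young control 1 (-0.66, 0.0798).

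Ier2 encodes a small nuclear immediate-early protein (ENSMUSG00000053560, chromosome 8, 84661331 to 84662852, minus strand). Ier2 stood at 68.4 and 62.2 CPM in old LPS and 69.9 and 58.6 CPM in young LPS libraries, against 90.1 and 73.0 CPM in old control and 69.7 and 76.9 CPM in young control libraries. The groups did not overlap in the old, and in the young they touched, at 69.9 CPM in young LPS 1 and 69.7 CPM in young control 1. Over both ages Ier2 fell by 0.23 ± 0.08 on the log2 scale (adjusted p = 0.0267), which was lost without young LPS 2 (-0.16, 0.157), old control 1 (-0.15, 0.175) or young control 2 (-0.20, 0.129). In the old alone it was -0.26 ± 0.12 (adjusted p = 0.0723; 0.049 with the lane as a block). Egr1, a zinc finger factor (ENSMUSG00000038418, chromosome 18, 34859823 to 34864984, plus strand), stood at 17.7 to 37.5 CPM in LPS and 14.5 to 25.6 CPM in control libraries (young log2 difference 0.38, adjusted p = 0.597). Zfp36 encodes tristetraprolin, which binds AU-rich elements and speeds the decay of cytokine mRNAs (ENSMUSG00000044786, chromosome 7, 28376784 to 28380253, minus strand). It stood at 113 and 129 CPM in old LPS and 180.1 and 134 CPM in young LPS libraries, against 121 and 99.6 CPM in old control and 133 and 143 CPM in young control libraries, and the groups overlapped at both ages.

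**Figure D1:**
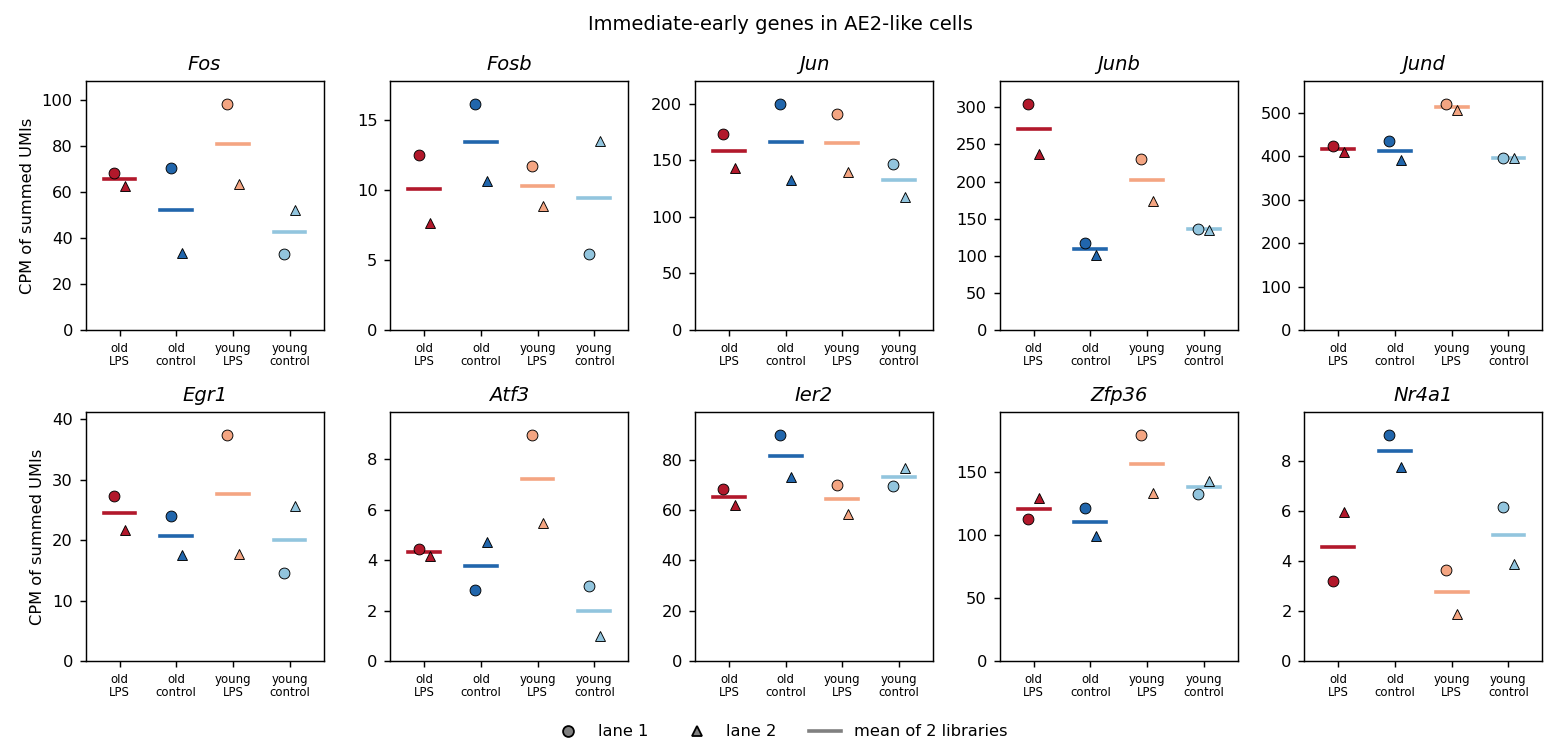
CPM of summed UMIs of each immediate-early gene in AE2-like cells (vertical axis from 0) for old LPS, old control, young LPS and young control libraries. Each point is 1 library (circle lane 1, triangle lane 2) and each bar is the mean of 2; Junb in LPS libraries (174 to 305 CPM) lies above all control libraries (101 to 136 CPM), while Fos overlaps.

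In all, 3 members were higher and 0 lower in the young, where 21.8% of all genes tested were higher and 18.4% lower. In the old 1 was higher and 1 lower, where 25.3% of genes were higher and 23.3% lower. Over both ages 3 were higher and 2 lower, where 29.3% were higher and 28.4% lower. These shares are near the background, so the members as a group did not stand out from other genes in the number called. Their median log2 fold change was 0.35 in the young and 0.13 in the old, beside -0.01 over all genes tested at each age.

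The transcriptome around these genes shifted with LPS in the same sums. Sftpc stood at 39109 to 67578 CPM in LPS libraries and 221515 to 254646 CPM in control libraries, and a share taken by one transcript lowers the CPM of the others. TMM scaling factors were 0.980 to 1.03. Of the markers of other cell types, 9 club/secretory markers summed to 12483 to 15594 CPM in LPS and 3165 to 6118 CPM in control libraries. The 12 monocyte/macrophage markers summed to 234 to 292 CPM in LPS and 584 to 707 CPM in control libraries, the 8 neutrophil markers to 77.0 to 111 CPM and 147 to 184 CPM, and the 10 ciliated markers to 32.4 to 47.7 CPM and 132 to 142 CPM. The 11 alveolar macrophage markers summed to 81.5 to 115 CPM in LPS and 32.0 to 51.8 CPM in control libraries, and the 5 platelet markers to 133 to 203 CPM and 15.3 to 24.1 CPM. T cell and NK cell markers were at or near 0. Median UMIs per AE2-like cell were 7602 to 9100 in LPS and 5705 to 7087 in control libraries, and their median mitochondrial share was 5.87% to 6.49% in LPS and 6.86% to 8.13% in control libraries. The part of these shifts in the members' values was not tested.

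The same Junb difference was seen per cell. With each cell thinned to 2000 UMIs, cells with at least 1 Junb UMI were 43.8% and 32.4% in old LPS and 35.0% and 26.8% in young LPS libraries, against 18.0% and 16.4% in old control and 23.4% and 21.3% in young control libraries. The LPS libraries averaged 34.5% and the control libraries 19.8% (4 libraries each, two-sided exact permutation p = 0.0286, which is the lowest value possible with 70 splits, and 0.143 adjusted over the 10 members). Without thinning the shares were 72.9% and 42.5%. Ier2 was at 11.7% in LPS and 13.9% in control libraries (exact permutation p = 0.0286, adjusted p = 0.143), but without thinning the order turned, to 37.1% in LPS and 35.2% in control libraries. For Fos the shares were 12.6% and 8.19% (exact permutation p = 0.114, adjusted p = 0.238). From 3 to 31 cells per library were too shallow and left out. No class here is known to lack these genes, so no background share from free RNA can be given.

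Within the AE2-like class, 2 of 8 clusters had the highest pooled values of Atf3, Egr1 or Nr4a1, described without a test because clustering used all genes. Single libraries of other clusters reached as high. A cluster of 339 cells led by the interferon-induced genes Cxcl10 and Gbp2, all from LPS libraries, held Atf3 at 21.2 to 24.0 CPM and Egr1 at 52.3 to 74.6 CPM over its 3 libraries of at least 20 cells. Pooled over libraries, its Atf3 was 22.3 CPM and that of the other 7 clusters 0.978 to 8.05 CPM. This cluster also had the highest pooled Fos (88.4 CPM), Jun (210 CPM), Junb (329 CPM), Jund (506 CPM) and Zfp36 (218 CPM). Its pooled Fosb was the lowest (4.74 CPM). Its cells were 11 and 51 from old LPS and 173 and 104 from young LPS libraries. It held 32 of 69 and 22 of 50 Atf3 UMIs of the young LPS libraries, and 11 of 53 of old LPS 2. Its part in the young Atf3 rise was not tested. One other cluster held 0 to 27.3 CPM of Atf3 and 2.64 to 148 CPM of Egr1 over 7 libraries. A cluster of 860 cells marked by Ndnf and Timp3 held Nr4a1 at 8.66 to 39.3 CPM over 6 libraries and 20.9 CPM pooled, against 1.46 to 6.84 CPM pooled elsewhere. Other clusters reached 49.6 CPM and 27.0 CPM of Nr4a1 in a library. Across the 8 library sums the genes that moved most like Junb, of 4563 compared, were Chic2, Ybx1, Aph1a, Plscr1 and Yipf2 (Pearson r = 0.991 for Chic2 and 0.990 for Ybx1). The genes most like Fos were Pgrmc2, Tiprl, Rnf10, Slc35b2 and Clptm1 (r = 0.944 for Pgrmc2). These r values are descriptions over 8 libraries that share treatment, depth and lane, and no p is given. From cell to cell within a library Fos had no gene with a mean r above 0.04 outside the members.

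Age alone was tested in each treatment. In AE2-like cells of control mice 0 of 10 members were called by edgeR (2 at an unadjusted p under 0.05, Atf3 and Zfp36, and 0 by DESeq2), where 0.22% of genes were higher in the old and 0.37% lower. The unadjusted edgeR p was under 0.05 for 1167 of all 11354 genes. In LPS mice 0 were called (5 at an unadjusted p under 0.05, which were Atf3, Zfp36, Jund, Junb and Nr4a1, and 0 by DESeq2), where 1.66% were higher and 2.38% lower. Of all 11354 genes, 1954 had an unadjusted p under 0.05 there. For the interaction of LPS and age 0 were called (3 at an unadjusted p under 0.05, which were Atf3, Jund and Junb, and 0 by DESeq2), where 0.37% were higher and 0.299% lower. Of all 11354 genes, 1155 had an unadjusted p under 0.05 for the interaction. The Junb response was larger in the old by 0.79 ± 0.22 on the log2 scale, which did not pass (adjusted p = 0.223). With the lane as a block it passed, at 0.80 ± 0.14 (adjusted p = 0.0159; 0.414% of genes higher), and it also passed without old LPS 2 (0.97, 0.0186) or young LPS 1 (1.01, 0.045). Junb in old against young LPS mice was 0.44 ± 0.15 (adjusted p = 0.173), and 0.44 ± 0.10 with the block (adjusted p = 0.0178). That difference also passed without old LPS 2 (0.62, 0.0205) or young LPS 1 (0.66, 0.049). Within lanes the old minus young difference of Junb was 0.40 and 0.44 in LPS libraries and -0.21 and -0.42 in control libraries.

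Other genes of the pathway are set against the background given above for these fits, 25.3% of genes higher and 23.3% lower in the old and 21.8% higher and 18.4% lower in the young. Of 13 other AP-1 and ATF family genes tested of 15 listed, 7 were higher and 2 lower in the old, and 5 higher and 0 lower in the young (medians 0.41 and 0.19). Maff, a small Maf protein, stood at 23.8 and 23.0 CPM in old LPS libraries, against 6.60 and 8.95 CPM in old control libraries, and rose by 1.62 ± 0.17 (adjusted p = 1.06e-06). Atf5 rose by 1.48 ± 0.18 in the old and 0.93 ± 0.19 in the young. Fosl2, a Fos family gene, rose in the old (0.96 ± 0.14, adjusted p = 4.73e-05) and had -0.03 ± 0.15 in the young (adjusted p = 0.901). Batf2, an interferon-induced AP-1 partner, stood at 0.446 and 2.35 CPM in old LPS and 7.29 and 4.94 CPM in young LPS libraries, against 0 to 0.279 CPM in the 4 control libraries.

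Of 19 other immediate-early transcription factors tested, 12 were higher and 4 lower in the old, and 8 higher and 2 lower in the young (medians 1.01 and 0.34). Cebpd, a C/EBP factor of the acute phase response, stood at 575 and 458 CPM in old LPS libraries, against 125 and 139.6 CPM in old control libraries (2.02 ± 0.13, adjusted p = 1.07e-08). In the young it stood at 508 and 432 CPM in LPS libraries, against 177 and 165 CPM in control libraries. Klf6, a zinc finger factor, rose by 1.12 ± 0.12 in the old and 1.50 ± 0.12 in the young, and Cebpb rose by 1.26 ± 0.12 and 0.92 ± 0.12. Tsc22d1 fell by 0.86 ± 0.11 in the old and by 1.07 ± 0.11 in the young.

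Of 23 immediate-early effectors tested, 13 were higher and 7 lower in the old, and 13 higher and 3 lower in the young (medians 0.65 and 0.48). Nfkbia, the inhibitor that ends NF-kappaB signalling, stood at 875 and 628 CPM in old LPS libraries, against 49.2 and 61.8 CPM in old control libraries (3.81 ± 0.20, adjusted p = 8.15e-07). Tnfaip3, a ubiquitin-editing brake on the same pathway, rose by 3.41 ± 0.17 in the old and 2.70 ± 0.18 in the young, and the kinase gene Pim1 by 1.93 ± 0.11 and 1.22 ± 0.10. Socs3, an inhibitor of cytokine receptor signalling, rose in the old (1.15 ± 0.11, adjusted p = 4.71e-07) and had -0.11 ± 0.11 in the young (adjusted p = 0.443). Of 6 tested mRNAs that tristetraprolin is known to bind in mouse macrophages, all 6 were higher at both ages (medians 4.79 in the old and 2.99 in the young). Csf2, the gene of GM-CSF, stood at 303 and 222 CPM in old LPS and 102 and 108 CPM in young LPS libraries, against 21.8 and 18.0 CPM in old control and 18.5 and 14.2 CPM in young control libraries. Tnf stood at 10.2 and 7.60 CPM in old LPS and 7.03 and 3.51 CPM in young LPS libraries, against 0.246 to 0.696 CPM in the 4 control libraries.

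Of 10 dual-specificity phosphatase and Sprouty genes tested, which switch MAP kinase signals off, 1 was higher and 3 lower in the old, and 2 higher and 2 lower in the young (medians -0.15 and -0.05), which is near the background share of all genes. Dusp6, a phosphatase of ERK, fell by 1.32 ± 0.18 in the old and by 1.34 ± 0.20 in the young. Dusp1 stood at 29.8 and 48.2 CPM in old LPS libraries, against 87.0 and 63.8 CPM in old control libraries, and fell by 0.89 ± 0.25 (adjusted p = 0.0279). Of 21 upstream kinases and activators tested, 6 were higher and 5 lower in the old, and 4 higher and 2 lower in the young (medians -0.02 and -0.02), also near the background. Map3k8, a kinase downstream of Toll-like receptors, rose by 2.15 ± 0.29 in the old and 1.32 ± 0.32 in the young, and Creb1, the gene of CREB, fell by 0.75 ± 0.13 and by 0.50 ± 0.14. Of 15 heat shock genes known to rise when tissue is dissociated, 4 were higher and 2 lower in the old, and 7 higher and 2 lower in the young (medians 0.14 and 0.18). Hspa1a, an inducible chaperone, stood at 4.56 and 5.59 CPM in young LPS libraries, against 1.23 and 1.67 CPM in young control libraries (1.75 ± 0.32, adjusted p = 0.000407). In the old it stood at 6.51 and 6.19 CPM in LPS and 5.12 and 5.26 CPM in control libraries (0.34 ± 0.22, adjusted p = 0.215). The young control libraries were thus the lowest. Hsp90ab1 fell in the young (-0.82 ± 0.11, adjusted p = 1.79e-05) and had 0.25 ± 0.11 in the old (adjusted p = 0.0599). The part of dissociation in the members' values was not tested.

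In ciliated-like cells, the cells that move airway mucus, Junb was again higher after LPS at both ages, and Fos and Ier2 were higher in the young. The sums held 52 to 266 cells per library. The ciliary genes Tppp3 (3345 CPM) and Tmem212 (2026 CPM) marked the class. In these sums Sftpc stood at 2099 to 3572 CPM in LPS and 4366 to 15621 CPM in control libraries, and the median UMIs per cell were 5722.5 to 6769 in LPS and 4864 to 5264 in control libraries. The part of both in the results was not tested. Different clusters held the LPS and the control cells: one held 457 LPS and 4 control cells, the other 59 LPS and 382 control cells. Of 7844 genes tested, 8 were members, since Atf3 and Nr4a1 were too sparse.

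Junb stood at 349.7 and 236 CPM in old LPS libraries, against 118 and 163 CPM in old control libraries. In the young it stood at 239 and 260.3 CPM in LPS libraries, against 83.8 and 60.2 CPM in control libraries. All LPS libraries lay above all control libraries. Junb rose by 1.29 ± 0.19 in the old (adjusted p = 2.23e-05) and 1.79 ± 0.23 in the young (adjusted p = 2.45e-06), and its call over both ages (1.54 ± 0.15, adjusted p = 6.85e-09) held in all 12 alternatives run. Ier2 stood at 131 and 113 CPM in young LPS libraries, against 65.0 and 83.6 CPM in young control libraries, and rose by 0.83 ± 0.25 (adjusted p = 0.0343). That call was lost without young LPS 1 (0.68, 0.267) or young control 1 (0.62, 0.379), and with library totals in place of TMM (0.77, 0.0532).

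Fos stood at 402 and 225 CPM in young LPS libraries, against 83.8 and 114 CPM in young control libraries. In the old it stood at 356 and 236 CPM in LPS libraries, against 348 and 329.9 CPM in old control libraries. The 2 young control libraries were the lowest of the 8, and the other 6 overlapped. Fos rose in the young by 1.80 ± 0.33 (adjusted p = 0.00896) and had -0.05 ± 0.26 in the old (adjusted p = 0.95). The young call was lost without old control 2 (1.79, 0.0545), young control 1 (1.55, 0.22) or young control 2 (1.99, 0.116). The difference between the ages in this response was -1.85 ± 0.43 and did not pass (adjusted p = 0.262), but it passed with the lane as a block (-1.85 ± 0.29, adjusted p = 0.00523; 0.153% of genes lower). It also passed without old LPS 1 (-2.22, 0.000371), old LPS 2 (-1.63, 0.00343) or young LPS 2 (-2.19, 2.19e-05). Over both ages Fos rose by 0.87 ± 0.21 (adjusted p = 0.0206), where 9.66% of genes were higher and 7.29% lower, and that call was lost without any one of the 4 control libraries (adjusted p = 0.102 to 0.201). Egr1 stood at 186 and 88.6 CPM in young LPS libraries, against 53.0 and 56.9 CPM in young control libraries. Its young difference was 1.44 ± 0.59 (adjusted p = 0.26) and passed with the block (1.48 ± 0.34, adjusted p = 0.0114). It also passed without old LPS 1 (1.44), old LPS 2 (1.45) or young LPS 2 (1.84). The old LPS libraries are not in this comparison.

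Between old and young control mice, ciliated-like cells had more Jun and Fosb in the old. Jun stood at 427 and 429.9 CPM in old control libraries, against 139 and 207 CPM in young control libraries (1.30 ± 0.24, adjusted p = 0.0244). In LPS libraries Jun stood at 289 and 206 CPM in the old and 290.2 and 177 CPM in the young, and its old LPS difference of -0.64 ± 0.21 (adjusted p = 0.0663) passed with the block (adjusted p = 0.0438). It also passed without old LPS 1 (-0.94), young LPS 1 (-0.65), young LPS 2 (-0.64), young control 1 (-0.64) or young control 2 (-0.64). The young libraries are not in that comparison. Fosb summed to 34 UMIs in old control and 3 UMIs in young control libraries, a ratio of 9.29 per UMI sequenced (95% exact interval 2.92 to 47.3, counting error only; edgeR adjusted p = 0.0447, and 0.0637 with the block). Fos stood at 348 and 329.9 CPM in old control libraries, against 83.8 and 114 CPM in young control libraries (1.78 ± 0.33, adjusted p = 0.0938). With the block Fos passed (1.78 ± 0.23, adjusted p = 0.000349). It also passed without any one of the 4 LPS libraries, at 1.78 to 1.79. Those libraries are not in this comparison, so the change in p does not come from the control libraries.

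The age calls in ciliated-like control cells depended on single libraries. Jun lost its call without old control 1 (1.33, 0.308), old control 2 (1.29, 0.204) or young control 1 (0.99, 0.236). Fosb lost it without old control 2 (2.74, 0.216), young control 1 (3.16, 0.412) or young control 2 (3.13, 0.161). In the same comparison 2 members were higher and 0 lower, where 0.255% of genes were higher and 0.115% lower. The median difference of the 8 members tested was 1.11, beside -0.01 over all genes. At an unadjusted edgeR p under 0.05 there were 7 of these 8, all higher in the old, beside 562 of 7844 genes. Jund was the exception (0.02). Among those not called, Zfp36 had 0.93, Ier2 0.75, Junb 0.77 and Egr1 1.58. Between old and young LPS mice 0 members were called (1 at an unadjusted p under 0.05, as were 589 of 7844 genes), where 0.306% of genes were higher and 0.88% lower. Of 13 heat shock genes tested there, 0 were higher and 2 lower, with a median of -0.46. For LPS, 3 members were higher in the young, where 5.32% of genes were higher, and 1 in the old, where 5.88% were higher. None was lower, where 3.07% and 3.37% were lower in the young and the old. The members' median was 1.13 in the young and -0.06 in the old, while 13 heat shock genes had medians of -0.52 and -0.51. The part of isolation stress in these differences was not tested.

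**Figure D2:**
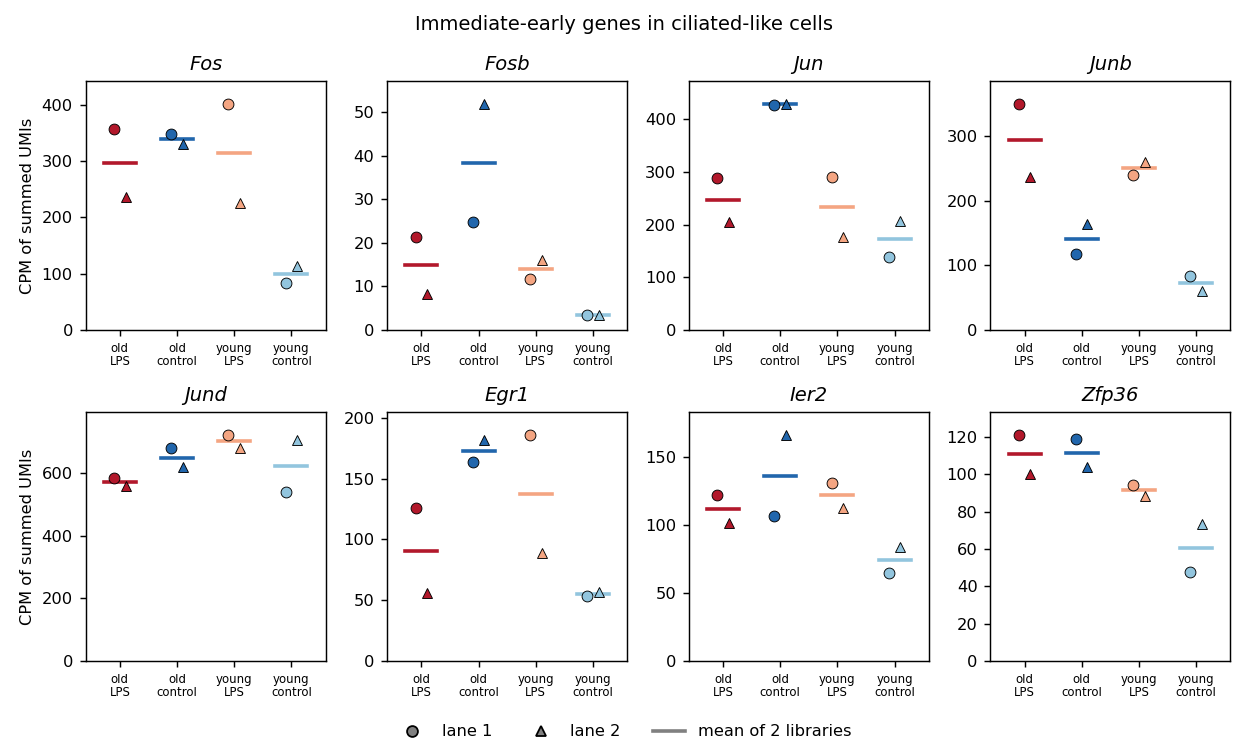
CPM of summed UMIs of immediate-early genes in ciliated-like cells (vertical axis from 0) for old LPS, old control, young LPS and young control libraries. Each point is 1 library (circle lane 1, triangle lane 2) and each bar is the mean of 2; Fos in young control libraries (83.8 and 114 CPM) lies below all others, and Junb in LPS libraries (236 to 349.7 CPM) lies above all control libraries.

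Dendritic-like cells, antigen-presenting cells that came through the EpCAM sort, had lower AP-1 sums after LPS, apart from Junb. This class held an Irf8 and Naaa cluster and a Ccr7 and Fscn1 cluster, the second with the genes of migrating dendritic cells. Of the LPS cells 61 were in the first and 146 in the second, against 271 and 32 of the control cells. A sum over the class therefore compares different mixtures of clusters. Of 4575 genes tested 8 were members, without Atf3 and Nr4a1.

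Fos stood at 56.9 and 125 CPM in old LPS and 89.9 and 67.6 CPM in young LPS libraries, against 249 and 417 CPM in old control and 76.7 and 139 CPM in young control libraries. The old groups did not overlap and the young groups did. Over both ages Fos fell by 1.23 ± 0.27 (log2, adjusted p = 0.00186), Fosb by 1.48 ± 0.26 (adjusted p = 1.53e-05), Jun by 0.82 ± 0.17 (adjusted p = 0.000123) and Jund by 0.63 ± 0.14 (adjusted p = 0.000264). Jun stood at 165 and 140.2 CPM in old LPS and 144 and 103 CPM in young LPS libraries, against 269.6 and 252 CPM in old control and 212 and 210.3 CPM in young control libraries, with no overlap. Junb stood at 739 and 512 CPM in old LPS and 602 and 452 CPM in young LPS libraries, against 421 and 430.0 CPM in old control and 316 and 279.7 CPM in young control libraries. All LPS libraries lay above all control libraries. Junb rose by 0.65 ± 0.13 (adjusted p = 0.00015) and Zfp36 by 0.46 ± 0.14 (adjusted p = 0.00921; 0.0612 without young LPS 2 and 0.0567 without old control 1). In all 2 members were higher and 4 lower, where 18.1% of genes were higher and 16.4% lower. In the old alone 1 was higher (Junb) and 4 lower, where 13.2% of genes were higher and 10.3% lower. In the young alone 2 were higher (Junb and Zfp36) and 2 lower (Fosb and Jun), where 11.7% were higher and 8.72% lower. Jund fell by 1.02 ± 0.19 in the old (adjusted p = 8.88e-05) and had -0.25 ± 0.19 in the young (adjusted p = 0.42), and Fos fell by 1.87 ± 0.36 (adjusted p = 0.0011) and had -0.59 ± 0.40 (adjusted p = 0.35).

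The members were also summed within each cluster. In the Irf8 and Naaa cluster Fos stood at 138 and 323 CPM in old LPS and 222 and 109.6 CPM in young LPS libraries, against 279 and 463 CPM in old control and 80.4 and 152 CPM in young control libraries. In the Ccr7 and Fscn1 cluster it stood at 9.64 to 40.8 CPM in LPS and 11.5 to 74.0 CPM in control libraries, so the cluster that LPS libraries held most of was the one with little Fos. For Junb the order of the clusters was the other way with some overlap. In LPS libraries it stood at 496 to 801 CPM in the Ccr7 and Fscn1 cluster and 292 to 546 CPM in the other. Control libraries of the Ccr7 and Fscn1 cluster held 5 to 13 cells each, with Junb at 540 to 666 CPM. Zfp36 there was lower after LPS (311 to 408 against 440 to 592 CPM), unlike in the class sum. Jun overlapped (69.9 to 141 against 41.9 to 111 CPM), without the fall of the class sum. Fosb was lower (5.82 to 19.6 against 34.5 to 185 CPM), and Jund overlapped (191 to 326 against 293 to 740 CPM). When the fit was repeated on the Irf8 and Naaa cluster alone, which was chosen with these data in view, 0 of the 6 members kept their call (edgeR, log2 -0.20 for Fos, -0.47 for Fosb, -0.44 for Jun, -0.01 for Jund, 0.22 for Junb and 0.39 for Zfp36, adjusted p = 0.252 to 0.989). That fit rests on 12 to 130 cells per library and called 55 genes higher and 53 lower of 2834.

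**Figure D3:**
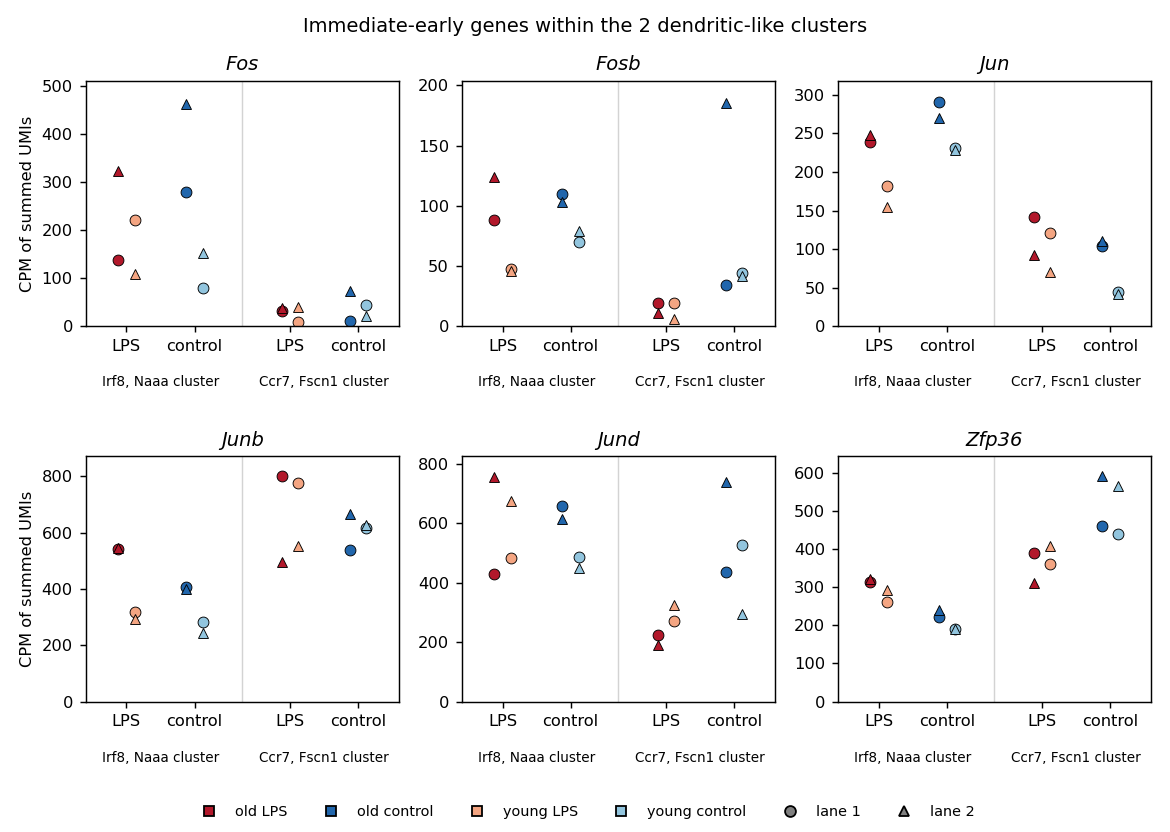
CPM of summed UMIs of 6 immediate-early genes within the Irf8, Naaa cluster (left of each panel) and the Ccr7, Fscn1 cluster (right), LPS beside control, each point 1 library. Fos in the Ccr7, Fscn1 cluster stays between 9.64 and 74.0 CPM in every library, below the 80.4 to 463 CPM of the Irf8, Naaa cluster.

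Between old and young control mice 0 members passed in dendritic-like cells by edgeR (5 at an unadjusted p under 0.05, as were 168 of 4575 genes), where 0% of genes were higher and 0% lower. Fos had 1.48 ± 0.34 (adjusted p = 0.324), and 1.58 ± 0.25 with the lane as a block (adjusted p = 0.000153, where 0.0219% of genes were higher). It also passed without old LPS 1 (1.44), old LPS 2 (1.44) or old control 1 (1.82). The old LPS libraries are not in this comparison. Both tested non-AE2 classes thus had higher Fos values in old control than in young control libraries, with no overlap between groups, while AE2-like cells had 70.6 and 33.6 CPM in old control and 33.0 and 52.2 CPM in young control libraries. Whether the age difference differs between classes was not tested.

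Differences in LPS response between classes were tested within libraries, with the library as a block. Against AE2-like cells, the ciliated-like response of Ier2 was higher by 0.64 ± 0.19 (log2, adjusted p = 0.0113), the 1 member called of 10, where 7.68% of genes were higher and 6.15% lower. With library totals in place of TMM it was 0.48 (adjusted p = 0.0697). The Junb response is called in both classes, and its difference was 0.57 ± 0.28 (adjusted p = 0.244). In dendritic-like cells 4 members had a lower response and 0 a higher one, where 7.46% of genes were lower and 6.62% higher. They were Egr1 (-1.69 ± 0.39, adjusted p = 0.000314), Fosb (-1.20 ± 0.33, adjusted p = 0.00417), Jun (-0.88 ± 0.20, adjusted p = 0.00016) and Jund (-0.77 ± 0.16, adjusted p = 3.56e-05). Egr1 was sparse in dendritic-like cells, with 2 and 7 UMIs in old LPS and 11 and 1 in young LPS libraries. It had 64 and 10 UMIs in old control and 1 and 13 in young control libraries. Within this class its LPS value over both ages was -1.13 ± 0.60 and not called (edgeR, adjusted p = 0.185). It was -2.20 in the old and -0.05 in the young. The mixture of the 2 dendritic-like clusters moved with LPS as given above. In the Irf8 and Naaa cluster alone the LPS values over both ages were -0.44 for Jun, -0.47 for Fosb and -0.01 for Jund, none called. That cluster alone was not compared with AE2-like cells. The part of the mixture in the 4 differences was therefore not tested.

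**Figure D4:**
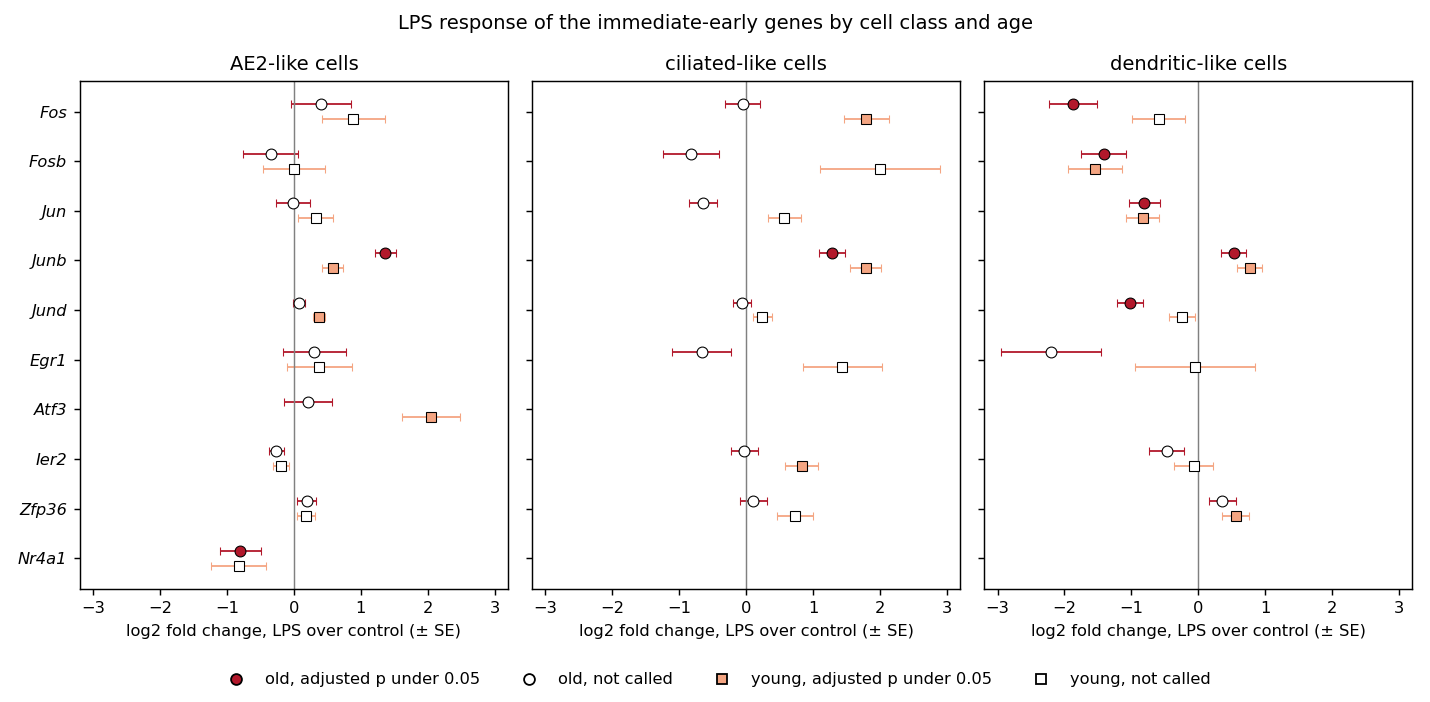
Log2 fold change of LPS over control (horizontal axis, ± SE) of each immediate-early gene in AE2-like, ciliated-like and dendritic-like cells, old as circles and young as squares, filled where the adjusted p was under 0.05. Junb is filled and to the right of 0 in all 6 comparisons; Fos lies at 1.80 in young ciliated-like cells and at -1.87 in old dendritic-like cells.

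The levels themselves differed between classes, compared gene by gene. Against AE2-like cells in the same library, ciliated-like cells had more Fos (1.36), Egr1 (1.52) and Atf3 (0.66), and these 3 calls held with library totals (2.10, 2.27 and 1.41). Zfp36 (-1.19), Nr4a1 (-1.49), Junb (-0.76) and Jund (-0.19) were lower with TMM, but with library totals Zfp36 was -0.44, Nr4a1 -0.75 and Junb -0.02, none of them called, and Jund was 0.55 and higher. TMM thus sets the direction of Jund. By count, 3 members were higher and 4 lower, where 35.7% of genes were higher and 36.9% lower. Dendritic-like cells had more Atf3 (2.09), Fosb (1.95), Nr4a1 (1.35), Junb (1.08), Zfp36 (0.80) and Ier2 (0.45), where 29.9% of genes were higher, and less Jund (-0.32; 0.02 with library totals), where 36.9% were lower.

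The order of the classes was also taken by unscaled CPM. Over all 6 classes with at least 3 libraries of 20 cells, monocyte/macrophage-like cells had the highest median of Fosb, Jun, Junb, Atf3, Ier2, Zfp36 and Nr4a1, and ciliated-like cells of Fos, Jund and Egr1. For Jund this order turns with TMM, by which ciliated-like cells were below AE2-like cells (-0.19). The monocyte/macrophage-like values come from 3 libraries, since nearly all of its 157 cells were from control mice, so class and treatment cannot be told apart for it. The same holds for club/secretory-like cells, whose 3 libraries were all LPS and in which Scgb1a1 alone took 542920 CPM. Most neighbours in these orders overlapped in range. The exceptions were Fosb in monocyte/macrophage-like cells (178 to 216 CPM) over dendritic-like cells (21.3 to 113 CPM), and Atf3 (39.3 to 66.2 CPM) and Egr1 (99.6 to 386 CPM) in monocyte/macrophage-like cells over alveolar macrophage-like cells (8.67 to 33.4 CPM and 11.4 to 69.4 CPM). Zfp36 in dendritic-like cells (217 to 371 CPM) lay above AE2-like cells (99.6 to 180.1 CPM), and Jund in AE2-like cells (391 to 521 CPM) above alveolar macrophage-like cells (186 to 381 CPM). By median, the lowest class was AE2-like for Junb, Egr1 and Ier2, although by TMM Junb was lower in ciliated-like than in AE2-like cells (-0.76; -0.02 with library totals). The lowest medians of Fos, Fosb, Jund, Atf3, Zfp36 and Nr4a1 were in club/secretory-like cells, for Fos at 51.6 CPM beside 63.1 CPM in AE2-like cells. The unscaled CPM of a class is lowered by its most abundant transcripts, Scgb1a1 here and Sftpc in AE2-like cells. Jun was lowest in alveolar macrophage-like cells, at 47.3 to 166 CPM. Of their 5 libraries only old LPS 2 was from LPS mice, and it gave the lowest Jun (47.3 CPM) and Jund (186 CPM). Old control 2 held 322 of the 516 cells of this class, so class and treatment cannot be fully told apart for it either.

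**Figure D5:**
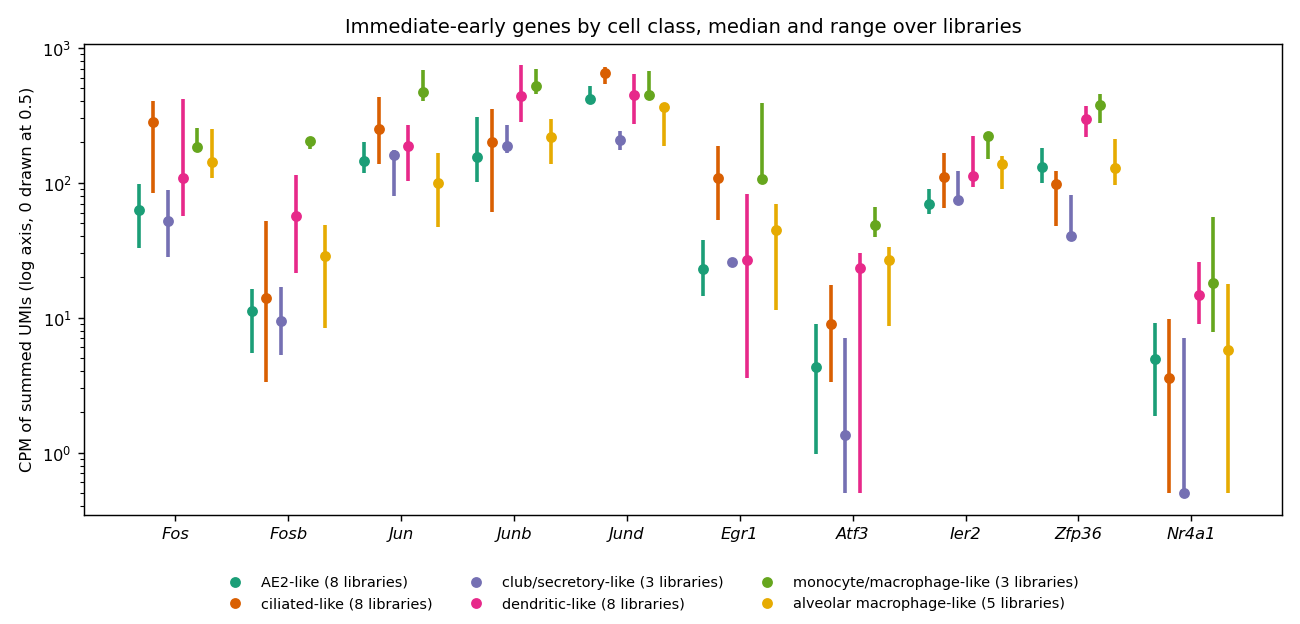
Median (point) and range (line) over libraries of the CPM of each immediate-early gene in 6 cell classes, on a log axis with 0 drawn at 0.5. Monocyte/macrophage-like cells lie highest for Fosb (178 to 216 CPM) and Atf3 (39.3 to 66.2 CPM), and ciliated-like cells have the highest median of Fos (283 CPM).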

How the data were processed

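The authors deposited raw counts: whole UMIs per gene and barcode, not normalized, in 1 table per group and lane. Per the submitters' processing notes, build mm10, bcl2fastq, Cell Ranger 3.1.0 and STAR were used, and also R 3.6.3 with Seurat 3.1.5 and 3.1. Their order and the rule for hashtags were not given in the sources used here. Per the labels' protocols, cells were freed with dispase, sorted as EpCAM positive and DAPI negative, and sequenced from the 3′ end.

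A barcode was kept with at least 500 detected genes and at most 20% mitochondrial UMIs. This left out 2803 of 14048 barcodes (12.1% to 34.7% of a library, most in young controls at 34.7% and 24.8%). Scrublet marked 14 doublets, few for pooled lanes. The remaining 11231 cells were clustered in scanpy 1.11.5 with 2000 variable genes, 30 components and 20 neighbours (leidenalg 0.10.2, resolution 1), which gave 21 clusters. Clusters were named "X-like" from markers of 21 classes. At least 3 markers in 20% of the cells were needed, markers detected widely over clusters did not count among a cluster's leading genes, and 192 cells stayed unnamed. Free RNA was not removed.

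UMIs were summed per library and class, filtered with filterByExpr, scaled with TMM and tested by edgeR's quasi-likelihood method (robust, edgeR 4.0.16, R 4.3.3). A single fit of 4 groups used the 8 libraries and had 4 residual degrees of freedom. The SE is approximate: the size of the log2 fold change was divided by the square root of F. CPM in the text are counts per 1000000 UMIs of the unscaled sum. Classes with at least 20 cells in each library were fitted. The Irf8 and Naaa cluster was also fitted alone, although its LPS libraries held 12 to 17 cells each, under that minimum. Lanes were compared as a replicate block because the labels call them independent experiments; the deviations of same-numbered libraries from their group means correlated at -0.02 to 0.13. DESeq2 1.42.0 and limma 3.58.1 were alternatives. Gene positions are from GENCODE M21 and promoter sequences from RefSeq (GRCm38.p6). The test was run on simulated data first. Named genes are the members, up to 4 called genes of each of 7 lists with the lowest adjusted p, and the genes most like Fos and Junb. The members and lists were chosen with earlier results of these data known.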

Additional observations from a re-analysis of the deposited data

Results flagged for a closer look

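In all, 5 results stood out because an LPS response differed between cell classes by a test of the difference itself, each class taken against AE2-like cells of the same library (edgeR, adjusted over all genes tested). In ciliated-like cells the Ier2 response was higher by 0.64 on the log2 scale. In dendritic-like cells the response was -0.88 for Jun, -1.20 for Fosb, -0.77 for Jund and -1.69 for Egr1. Egr1 was sparse there, at 1 to 11 UMIs per LPS library and 1 to 64 per control library. Its LPS value within the class was not called over both ages (-1.13, edgeR adjusted p = 0.185). For Ier2 the value was 0.48 and not called (adjusted p = 0.0697) with library totals. For the dendritic-like class the Irf8 and Naaa cluster held 61 of the LPS cells and 271 of the control cells, and the Ccr7 and Fscn1 cluster 146 and 32. In the Irf8 and Naaa cluster alone, Jun, Fosb and Jund had LPS values of -0.44, -0.47 and -0.01 over both ages, none called. That cluster alone was not compared with AE2-like cells, so the part of the mixture was not tested.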

How the results depend on the processing

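Junb in old AE2-like cells kept its direction and call in all 20 alternatives, and over both ages in all 19. For the other counts of members called, in AE2-like cells, 3 higher in the young became 1 with every deposited barcode summed, where Junb and Atf3 lost their calls. The 1 lower in the old (Nr4a1) became 2 with library totals, and 0 with at most 10% mitochondrial UMIs, every barcode, 3% of the highest doublet scores left out, resolution 0.5, no rule on widely detected markers, DESeq2 or per-cell CPM in limma. The 0 lower in old against young controls became 2 with only the groups compared. In old against young LPS mice the 0 higher became 1 and the 0 lower 2 without a filter on low counts, and for the interaction both became 1. The block gave 1 higher in both. Over both ages the 2 lower became 0 with every barcode and 1 with DESeq2, and the 3 higher became 2 with every barcode. In ciliated-like cells the 3 higher in the young became 2 with library totals, the 0 lower in the old became 1 with library totals, 10% mitochondrial UMIs or the block, and the 0 lower in the interaction became 1 with the block. With library totals, the level against AE2-like cells had 7 higher and 0 lower in ciliated-like and 0 lower in dendritic-like cells, and the ciliated-like response had 0 higher. Jund turned to 0.55 in ciliated-like and 0.0231 in dendritic-like cells. In dendritic-like cells the block gave 1 higher in old against young controls, and the Irf8 and Naaa cluster alone gave 0 higher and 0 lower over both ages. The replicate block changed no other call than those given with the results. Shares of cells turned for Fosb (-0.26 points, thinned to 3000 UMIs) and for Ier2 (1.89 points, unthinned).

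Leaving out 1 library gave these ranges of members called. In AE2-like cells they were 0 to 4 higher and 0 to 1 lower in the young, 1 to 1 higher and 0 to 1 lower in the old, 0 to 1 higher and 0 to 1 lower in old against young LPS, 0 to 1 higher in the interaction, and 2 to 5 higher and 0 to 2 lower over both ages. In ciliated-like cells they were 1 to 5 higher in the young, 0 to 2 lower in the old, 0 to 4 higher in old against young controls, 0 to 3 lower in the interaction and 1 to 5 higher over both ages. In dendritic-like cells they were 0 to 2 higher in old against young controls, and 1 to 2 higher and 4 to 5 lower over both ages. A library left alone in its group was assumed to vary like the others. Leaving out a library outside a comparison keeps the libraries compared the same, so a change in p then does not measure their spread. Counts over all genes (2480 higher and 2091 lower in the young, 2876 and 2643 in the old) were 1749 and 1156, and 1792 and 1477, with every barcode. With DESeq2 they were 1276 lower in the young and 1642 in the old. Atf3 and Nr4a1, at 7 to 69 UMIs per library for Atf3, and the small classes limit what can be seen. The causes of these changes were not tested.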
